A study of Mus musculus with 2 samples.

Results

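Lymphatic endothelial cells were a rare population of the silica-exposed mouse lung, 276 of the 32445 cells kept from both genotypes. A cell was counted as lymphatic endothelium when it held at least 1 read of 2 or more of Mmrn1, Prox1, Flt4 and Reln and at least 1 read of 1 or more of the endothelial genes Cdh5, Pecam1 and Cldn5. The lungs came from C57BL/6 mice that had silica put into the trachea at 400 mg/kg, either wild type (WT) or CCR2-/- (CCR2KO below, lacking the chemokine receptor Ccr2 in all cells), and were collected 3, 7 and 21 days later. No lung without silica entered the comparison, so silica is common to all groups. Each suspension carried an antibody tag (9 tags in WT and 8 in CCR2KO), all tagged suspensions of a genotype went into 1 single-cell library, and no label ties a tag to a day or to an animal. Genotype therefore cannot be told apart from library, and p-values over tags measure the spread between tagged suspensions, which mix the days. Of the lymphatic cells 155 of 17227 kept cells were WT and 121 of 15218 were CCR2KO, with between 6 and 30 per tag.

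Lymphatic endothelium lines the vessels that return fluid, particles and immune cells from the lung to its draining lymph nodes. PROX1 is the transcription factor that sets and keeps the lymphatic fate, FLT4 (VEGFR-3) is the receptor for the lymphatic growth factors VEGF-C and VEGF-D, MMRN1 is a secreted multimerin stored in these cells, and RELN is an extracellular glycoprotein. The cells also secrete the chemokine CCL21, which draws dendritic cells and T cells that carry its receptor CCR7 into the vessel, and many carry LYVE1, a hyaluronan receptor of the initial lymphatics.

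The deposited counts were large for single cells and are treated as reads, not molecules. Lymphatic cells held a median of 42133 reads and 1639 detected genes, against 23859 reads and 1101 genes in the 7719 other endothelial cells, which had reads of 2 or more of Cdh5, Pecam1 and Cldn5 and none of Mmrn1 or Prox1. Summed per tag, the lymphatic cells gave between 490993 and 1982013 reads, and levels below are CPM, the reads of a gene scaled to that sum. As a check of the genotype labels, Ccr2 over all kept cells lay between 52.8 and 100.4 CPM in the WT tags and between 1.40 and 4.36 in the CCR2KO tags, with no overlap. No WT lymphatic cell shared its cell number with a CCR2KO lymphatic cell. Among all tagged cells 318 cell numbers occurred in both libraries, and lymphatic cells were not compared with the other library's remaining cells.

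The cells were chosen by reads of 7 genes, which are therefore described without a test. All of Mmrn1, Prox1, Flt4 and Reln were detected in 76 cells, and the commonest pair was Mmrn1 with Flt4 alone, in 53 cells. Mmrn1 had a read in 96.0% of the lymphatic cells, Flt4 in 76.8%, Prox1 in 63.0% and Reln in 51.8%. Only 3 of the 276 cells had neither Mmrn1 nor Prox1. Just outside the rule lay 722 cells with 1 lymphatic marker, of which 444 had Flt4 alone and 187 had Mmrn1 alone. Those outside cells were less like lymphatic endothelium in genes the rule did not use: a Ccl21 read was present in 26.4% of the cells with Flt4 alone and in 53.5% of those with Mmrn1 alone, against 89.1% of the members with 2 markers and 97.0% of those with 3 or 4. A further 22 cells had 2 or more lymphatic markers and no endothelial one, and 77.3% of them had a Ccl21 read.

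The gene that most set the cells apart was Ccl21, and it is a family of near-identical copies. Ccl21a lies on chromosome 4 at 42772860 to 42773993 of GRCm38, on the minus strand, and Ccl21b on the same chromosome at 42255767 to 42256432, on the plus strand. Their coding sequences, 402 bases each in the GENCODE M21 transcripts, are shown here from base 64 to base 214, counted from 1 at the A of the start codon, because a short read that misses the differing bases cannot be given to 1 copy. Capitals mark the 2 bases that differ, T84A and C194T, with the base of Ccl21a first.
Ccl21a: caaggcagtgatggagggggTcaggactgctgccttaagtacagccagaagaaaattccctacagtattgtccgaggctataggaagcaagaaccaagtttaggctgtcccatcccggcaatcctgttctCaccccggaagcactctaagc
Ccl21b: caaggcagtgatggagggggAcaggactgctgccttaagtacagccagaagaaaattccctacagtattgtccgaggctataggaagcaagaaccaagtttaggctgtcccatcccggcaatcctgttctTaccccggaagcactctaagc
Both coding sequences are 99.5% identical, and that of another copy, Gm10591 (chromosome 4, 42612195 to 42612860, plus strand), has 0 differences from Ccl21b.

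The tables list 7 features of this family. Within the lymphatic cells Ccl21a held 155564 reads and Gm1987 held 156651, a difference of 0.699%. Ccl21b, Ccl21c, Gm10591 and LOC100041593 held between 76519 and 77667 reads, close to each other, and LOC100041504 held 10440. Counts this even between copies mean that a level of 1 copy cannot be read on its own, so the copies were summed. The sum took 3.70% of all reads of the lymphatic cells. Per cell it had a median of 4.07% of the reads and ranged from 0 to 18.6%.

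At an equal depth of 5000 reads per cell, a Ccl21 family read was found in 91.7% of lymphatic cells, in 4.32% of other endothelial cells and in 4.82% of B cells, a type that should lack it (cells with reads of Cd79a and Ms4a1 and of none of the choosing genes; median 14802 reads before thinning). The share in other endothelial cells was thus no higher than in B cells. Without thinning the shares were 93.8%, 19.3% and 11.9%. Ccl21 was missing from 17 lymphatic cells, 11 in WT and 6 in CCR2KO; 12 of the 17 had met the rule with 2 markers, and 5 had a Lyve1 read.

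Lymphatic markers that had no part in the rule were also detected more often in these cells, with Lyve1 the least selective of those given here. At 5000 reads per cell Maf, a transcription factor of lymphatic valves and vessels, was detected in 60.5% of lymphatic and 1.84% of other endothelial cells, and the glycoprotein Thy1 in 55.4% of lymphatic cells. Podoplanin (Pdpn) was detected in 42.4% and 4.49%, the scavenger receptor Stab1 in 49.6% and 7.48%, and the VEGF-C co-receptor Nrp2 in 45.3% and 3.86%. Lyve1 was detected in 57.2% of lymphatic cells but also in 40.6% of other endothelial cells, and in 1.40% of B cells. Nts, which encodes the peptide neurotensin, was detected in 36.6% and 0.169%. Most markers of blood vessel endothelium went the other way. The capillary gene Gpihbp1 was detected in 8.70% of lymphatic and 45.6% of other endothelial cells. For the aerocyte gene Car4 the shares were 5.07% and 30.8%, and for Vwf, a vein and large-vessel gene, 2.54% and 18.9%. By mean CPM over tags, 0 of 6 general capillary and 0 of 6 aerocyte markers were higher in lymphatic cells. Of the artery markers 1 of 5 was higher, and of the vein markers 2 of 5 were.

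The levels per tag showed the same separation. The Ccl21 family stood at 39140 ± 12497 CPM in WT tags (SD, n = 9) and 36647 ± 12674 in CCR2KO tags (SD, n = 8). The mean over the 17 tags was 2232 ± 772 CPM for Mmrn1, 410 ± 155 for Prox1, 442 ± 162 for Flt4 and 247 ± 116 for Reln (SD, n = 17). Of 2106 genes at 100 CPM or more in either kind of cell, 73 (3.47%) were at least 4-fold higher in lymphatic than in other endothelial cells after 5 CPM were added to each level, and 114 (5.41%) were at least 4-fold lower. This contrast follows the choosing genes and was not tested. Next to the Ccl21 copies the largest ratios were those of Nts (689 against 2.36 CPM), the BTB-domain gene Klhl4 (221 against 1.58) and the proprotein convertase Pcsk6 (183 against 0.536). Tbx1, a transcription factor needed for lymphatic growth, stood at 191 against 1.89, the guidance ligand Sema3d at 200.1 against 2.34, Thy1 at 704 against 21.2, the pentraxin Ptx3 at 385 against 9.63, and Slc45a3 at 148 against 1.02. Each of these 8 genes was higher in lymphatic cells in 17 of 17 tags.

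**Figure D1:**
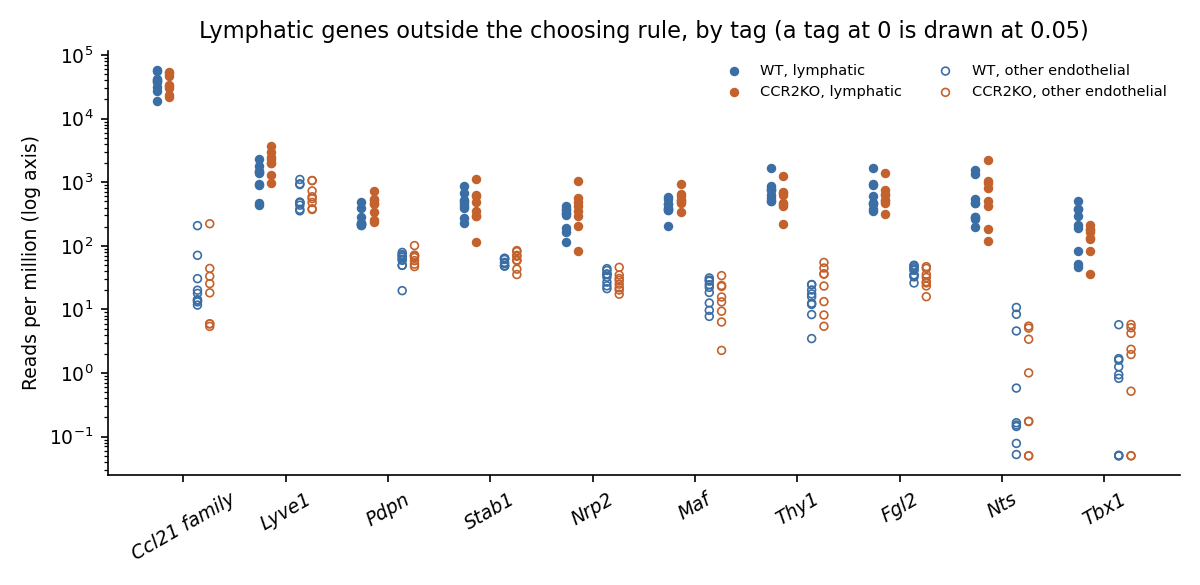
CPM (log axis) of the summed Ccl21 copies and 9 lymphatic genes that had no part in choosing the cells; each point is 1 tag, filled for lymphatic and open for other endothelial cells, blue for WT and orange for CCR2KO. Ccl21, Maf, Thy1, Nts and Tbx1 lie far apart between the cell kinds, Lyve1 overlaps between them, and a tag with no read is drawn at 0.05.

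Of the 15 measured genes of the VEGF-C and VEGF-D list, 6 were higher in lymphatic than in other endothelial cells, and of the 17 matrix genes 9 were. So were 10 of the 15 valve and collecting vessel genes and 6 of the 19 genes of TGF-beta and BMP signalling, the list that holds Ltbp4. Of the ligands and receptors around VEGF-C and VEGF-D, Nrp2 (357 against 30.6 CPM), the ligand Pgf (196 against 15.2) and Angpt2, a ligand of the TIE2 receptor (208 against 16.3), were all higher in lymphatic cells in 17 of 17 tags. Kdr (VEGFR-2) had nearly the same level in both, 519 and 470 CPM, while Flt1 (VEGFR-1) stood at 21.7 against 425 and the co-receptor Nrp1 at 60.4 against 468. The growth factors themselves were low in the cells: Vegfc at 4.02 and Vegfd at 10.1 CPM. Of the genes of lymphatic valves and collecting vessels, the integrin Itga9 (205 against 18.0) and the connexin Gja1 (257 against 32.1) were higher in 17 of 17 tags, and the valve transcription factor Foxc2 reached 23.7 against 1.21. The membrane protease Mmp14 stood at 776 against 151 and the TGF-beta binding protein Ltbp4 at 485 against 92.8. Among genes lower in lymphatic cells in all 17 tags were the fatty acid transporter Cd36 (127 against 1790), the guidance ligand Sema3c (22.9 against 531) and the junction gene Esam (25.3 against 485).

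Cell cycle genes were read more often in lymphatic than in other endothelial cells, except in tag 3 of each genotype. At 5000 reads per cell, 39 of 155 WT and 31 of 121 CCR2KO lymphatic cells held reads of 3 or more of 13 cell cycle genes. Over tags this was 25.1 ± 10.7% in WT (lowest 0, median 25.0, highest 36.4; SD, n = 9) and 24.6 ± 10.5% in CCR2KO (lowest 5.88, median 27.5, highest 37.5; SD, n = 8). The genotypes overlapped almost fully, and WT tag 3 alone had no such cell among 14. In other endothelial cells the share was 9.72 ± 5.06% in WT (SD, n = 9) and ran from 4.13 to 12.3% in CCR2KO tags. Tag 3 went the other way in both genotypes. Its lymphatic and other endothelial shares were 0 and 7.38% in WT, and 5.88 and 6.53% in CCR2KO. Without thinning the lymphatic shares were 40.6% in WT and 32.2% in CCR2KO. Mki67, a protein of dividing cells, was detected at 5000 reads in 11.2% of lymphatic, 3.70% of other endothelial and 0.761% of B cells. The difference between cell kinds belongs to the contrast that chose the cells and has no test.

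**Figure D2:**
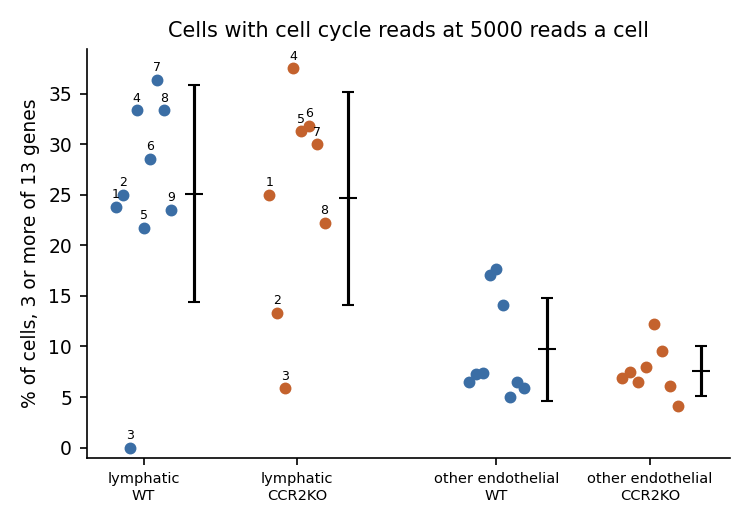
Percent of cells with reads of 3 or more of 13 cell cycle genes after thinning to 5000 reads; each point is 1 tag (tag numbers above the lymphatic points), and bars give the mean and SD over tags. Lymphatic tags run from 0 in WT tag 3 to 37.5% in CCR2KO tag 4, and other endothelial tags between 4.13 and 17.7%.

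The share of lymphatic cells varied widely over tags in both genotypes, and no difference between genotypes passed the test. Among all kept cells the share was 0.891 ± 0.358% in WT (SD, n = 9), from 0.327% in tag 8 (6 cells) through a median of 0.908% to 1.55% in tag 4 (30 cells). In CCR2KO it was 0.787 ± 0.272% (SD, n = 8), from 0.398% in tag 1 (8 cells) through a median of 0.831% to 1.14% in tag 4 (24 cells). The ranges overlapped, and the 2-sided exact permutation test over tags gave p = 0.517 (adjusted over both shares, 0.517). Among endothelial cells the share was 3.31 ± 1.51% in WT (n = 9) and 3.82 ± 1.43% in CCR2KO (n = 8), with p = 0.481 by the exact permutation test (adjusted 0.517). Fewer recovered cells and fewer cells in the lung cannot be told apart here, since each suspension passed enzyme digestion and a density gradient.

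**Figure D3:**
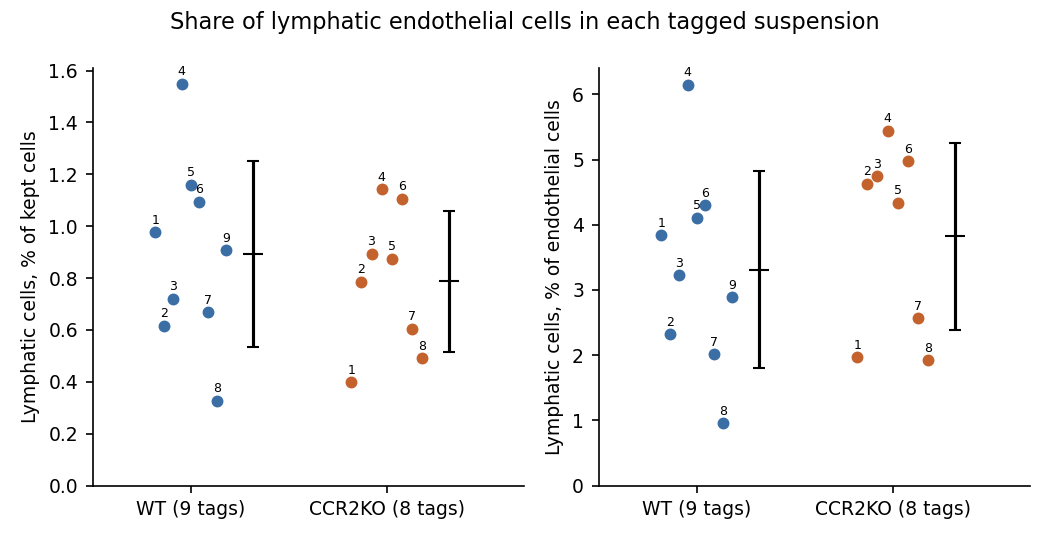
Lymphatic endothelial cells as percent of kept cells (left) and of endothelial cells (right); each point is 1 tag with its number, and bars give the mean and SD over tags. WT tags run from 0.327 to 1.55% and CCR2KO tags from 0.398 to 1.14% of kept cells, with overlapping ranges.

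The genotypes overlapped in the level of the Ccl21 family, which ranged from 19161 CPM in WT tag 8 through a median of 39328 to 58002 in WT tag 7, and from 21597 in CCR2KO tag 7 through a median of 32596 to 54680 in CCR2KO tag 1. The log2 difference of CCR2KO from WT was -0.10, with p = 0.683 by a 2-sided exact permutation test over tags. Across genes, edgeR's quasi-likelihood test with Benjamini-Hochberg adjustment called 3 of 6281 genes at an adjusted p under 0.05, that is 0.0478%: Rn45s and Chil3 lower (0.0318%) and Scgb1a1 higher (0.0159%) in CCR2KO. At an unadjusted p under 0.05 there were 174 genes, 61 higher and 113 lower. DESeq2 called 10 genes, which included Chil3 and Rn45s but not Scgb1a1.

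None of the 3 called genes is a lymphatic gene. Rn45s, the ribosomal RNA precursor, ran from 3682 to 5851 CPM in WT tags with a median of 4585, and from 2396 to 3517 in CCR2KO tags with a median of 2696. Every CCR2KO tag lay below every WT tag, which held for 0.0318% of the genes tested (log2 change -0.73 ± 0.13 SE, edgeR adjusted p = 0.0191). Rn45s was lower in CCR2KO in the other endothelial cells too (log2 change -0.52, edgeR adjusted p = 3.83e-06). Chil3, a chitinase-like protein of macrophages, ran from 25.6 to 1978 CPM in WT tags with a median of 37.1, and reached at most 20.9 in CCR2KO tags, below every WT tag (log2 change -5.25 ± 0.92 SE, edgeR adjusted p = 0.0191). It was highest in WT tags 4, 5 and 9, with WT tag 1 at 132, and 3 cells held 91.3% of its reads. With the cells holding a Ptprc read left out, the log2 change of Chil3 was -1.14 and its edgeR adjusted p was 0.999. Scgb1a1, the secretoglobin of airway club cells, stood at 157964 CPM in CCR2KO tag 8 and between 143 and 395 in the other CCR2KO tags, against 30.8 to 142 in WT (log2 change 8.09 ± 1.48 SE, edgeR adjusted p = 0.0235). A single cell of CCR2KO tag 8 held 97.5% of these reads, and they made up 43.6% of that cell's reads. Without that tag the log2 change of Scgb1a1 was 1.33 and the edgeR adjusted p was 0.857, and Chil3 and Rn45s also missed the threshold, which left 0 calls and 205 genes at an unadjusted p under 0.05. Their log2 changes stayed close to those with all tags, -5.22 for Chil3 (edgeR adjusted p = 0.0631) and -0.71 for Rn45s (edgeR adjusted p = 0.0554). The other CCR2KO tags still lay above every WT tag for Scgb1a1. With all tags, every CCR2KO tag lay above every WT tag for 0.0318% of the genes tested. Leaving out WT tag 9 likewise left 0 calls, with 144 genes at an unadjusted p under 0.05 and log2 changes of -4.53 for Chil3, -0.70 for Rn45s and 8.08 for Scgb1a1 (edgeR adjusted p of 0.0595, 0.0595 and 0.0717).

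No member of the 17 gene lists on lymphatic function passed the edgeR test; of 204 members tested 25 had an unadjusted p under 0.05, 8 higher and 17 lower in CCR2KO (12.3%, against 2.77% of all genes tested). DESeq2 called 3 (Bst2, Cd74 and Ifi27l2a), 1.47% of the members against 0.159% of all genes. Since the lists were chosen with results of these data known, these shares are a description. The lists below are given by their counts and by the median log2 change of CCR2KO from WT, beside a median of -0.04 over all 6281 genes.

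Lymphatic identity genes had log2 changes of both signs. Of 20 tested, 11 had positive and 9 negative log2 changes, with a median of 0.09. Lyve1 ran from 441 to 2333 CPM in WT tags with a median of 1385, and from 964 to 3663 in CCR2KO tags with a median of 2160. CCR2KO tags 1 to 6 and WT tag 8 held the highest levels, and the groups overlapped (log2 change 0.77 ± 0.28 SE, edgeR adjusted p = 1.00, unadjusted p = 0.0108). Pdpn ran from 212 to 484 CPM in WT tags and from 234 to 729 in CCR2KO tags (log2 change 0.65, edgeR adjusted p = 1.00). In the VEGF-C and VEGF-D list 4 of 9 members were positive and 5 negative (median -0.30); Angpt2 had a log2 change of 1.00 and Nrp2 of 0.49, neither past the threshold. In the chemokine list 4 of 9 were positive and 5 negative (median -0.03), but 3 of the 9 are Ccl21 copies that share their reads. Without them, a choice made after seeing the data, 4 of 6 were positive and 2 negative (median 0.95). Ccl2, a ligand of CCR2, ran from 15.4 to 442 CPM in WT and had a median of 201 and a highest value of 1571 in CCR2KO, the latter in CCR2KO tag 7, where 1 cell held 32.0% of all Ccl2 reads. The atypical receptor Ackr2, which removes inflammatory chemokines, stood at 57.5 ± 38.1 CPM in WT (SD, n = 9) and 161 ± 148 in CCR2KO (SD, n = 8).

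Interferon and antigen presentation genes had mostly negative log2 changes in CCR2KO, and none passed the edgeR test with all tags. Of 16 type I interferon response genes 14 had negative log2 changes and 2 positive, with a median of -1.15, and 8 had an unadjusted p under 0.05, all lower. The summed level of this list ran from 3819 to 7612 CPM in WT tags with a median of 5765, and from 2285 to 4951 in CCR2KO tags with a median of 3020. Of the WT tags 7 of 9 lay above the highest CCR2KO tag. In each of the other lists, of function or of cell type markers, at most 3 WT tags did. Ifi27l2a, an interferon-induced mitochondrial protein, lay between 431 and 2384 CPM in WT, with a median of 979, and between 142 and 767 in CCR2KO, with a median of 414. All but WT tags 6 and 8 were above the highest CCR2KO tag (log2 change -1.40 ± 0.35 SE, edgeR adjusted p = 0.434, DESeq2 adjusted p = 0.0293). The share of all genes that separate this far was not counted. Bst2, which tethers virus particles to the cell surface, ran from 571 to 1549 CPM in WT tags and from 226 to 856 in CCR2KO tags (log2 change -0.96 ± 0.26 SE, edgeR adjusted p = 0.506, DESeq2 adjusted p = 0.0479). Ifitm3, a membrane protein that blocks virus entry, stood at 2480 ± 394 CPM in WT (SD, n = 9) and 1705 ± 591 in CCR2KO (SD, n = 8). The same list had a median log2 change of -0.87 in other endothelial cells, where the median over all genes was 0.01.

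Of 16 genes of the interferon gamma and MHC class I list 15 were negative and 1 positive, with a median of -0.69. B2m, the light chain of MHC class I, ran from 2200 to 8106 CPM in WT tags and from 1271 to 7457 in CCR2KO tags (log2 change -0.75 ± 0.27 SE, edgeR adjusted p = 1.00). All 5 MHC class II genes tested were negative, with a median of -2.88. Cd74, the invariant chain of MHC class II, lay between 65.2 and 1402 CPM in WT with a median of 193, and between 4.92 and 182 in CCR2KO with a median of 68.7. WT tags 1, 2 and 5 were far above the rest, and the others overlapped with CCR2KO; 1 cell of WT tag 1 held 31.4% of all Cd74 reads and 3 cells held 49.8% (log2 change -2.61 ± 0.66 SE, edgeR adjusted p = 0.434, DESeq2 adjusted p = 0.0459). H2-Ab1, a chain of the class II molecule itself, had 8.48 to 731 CPM in WT and 2.03 to 114 in CCR2KO (log2 change -3.54 ± 0.93 SE, edgeR adjusted p = 0.451). Without CCR2KO tag 2 the log2 change of H2-Ab1 was -5.01 with an edgeR adjusted p of 0.0210, and H2-Aa, its partner chain, was called too; over single tags left out the adjusted p of H2-Ab1 ran from 0.0210 to 1.00. At 5000 reads per cell Cd74 was detected in 31.0% of WT and 10.7% of CCR2KO lymphatic cells, and in 43.6% and 39.5% of other endothelial cells.

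Immune reads were measured beside the MHC class II values. The leukocyte gene Ptprc had a read in 24.5% of WT and 10.7% of CCR2KO lymphatic cells at full depth, and in 5.16% and 6.61% at 5000 reads. The summed level of 6 macrophage markers ran from 348 to 6618 CPM in WT tags with a median of 1530, and from 449 to 5624 in CCR2KO tags with a median of 698. Without the cells that held a Ptprc read the log2 change was -2.75 for Cd74, -3.45 for H2-Ab1, -1.42 for Ifi27l2a and -1.07 for Bst2. With the 139 cells that held a read of Ptprc, Epcam or Col1a1 left out, it was -1.47 for Cd74, -1.58 for H2-Ab1, -1.66 for Ifi27l2a and -0.39 for Bst2, and edgeR called 0 of 4283 genes, with 78 at an unadjusted p under 0.05. That setting left 8 WT and 5 CCR2KO tags with at least 5 cells, so these values do not come from the same tags.

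**Figure D4:**
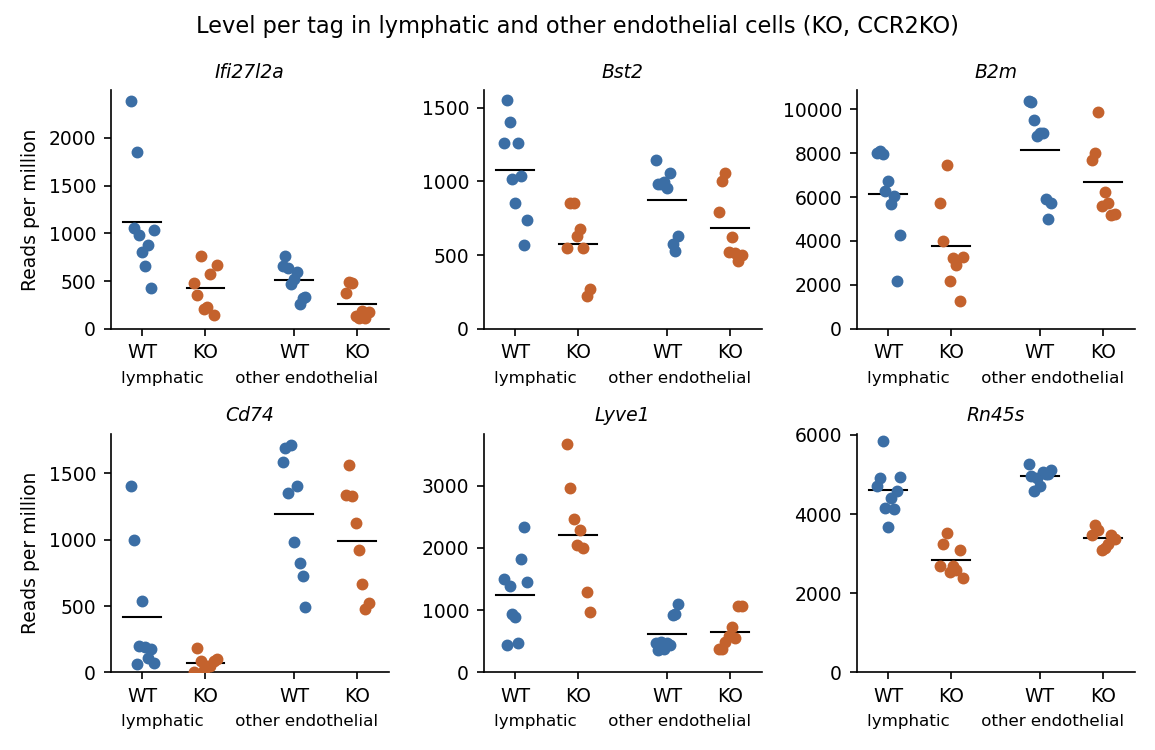
CPM in lymphatic and other endothelial cells of WT (blue) and CCR2KO (orange) for 6 genes; each point is 1 tag and lines mark the mean over tags. In lymphatic cells Rn45s does not overlap between genotypes, whereas Ifi27l2a, Bst2, B2m, Cd74 and Lyve1 do.

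Matrix genes were positive in 9 of 16 (median 0.05), with Sparc, a collagen-binding protein, at 947 to 3224 CPM in WT and 1616 to 8270 in CCR2KO (log2 change 0.71 ± 0.27 SE, edgeR adjusted p = 1.00). Without CCR2KO tag 7, where the fibroblast markers were highest, the log2 change of Sparc was 0.37. Valve and collecting vessel genes were positive in 7 of 10 (median 0.32) and genes of leukocyte passage in 9 of 13 (median 0.19). In that last list Cd99, an adhesion protein of leukocyte passage, had a log2 change of -0.86 in lymphatic cells (edgeR adjusted p = 1.00) and was lower in CCR2KO in other endothelial cells (log2 change -0.77, edgeR adjusted p = 2.12e-06). Lipid uptake genes were positive in 3 of 9 (median -0.96). The fatty acid binding protein Fabp5 had a mean of 299 CPM in WT and 66.2 in CCR2KO, with a log2 change of -2.21 ± 0.73 SE and an edgeR adjusted p of 1.00. Genes of TGF-beta and BMP signalling were positive in 6 of 14 (median -0.15), of Notch and shear response in 2 of 8 (median -0.38), of acute phase and NF-kB signalling in 6 of 14 (median -0.26), of iron and oxidative stress in 5 of 11 (median -0.28), of mitochondrial respiration in 2 of 7 (median -0.06) and of the cell cycle in 7 of 13 (median 0.11). Immediate early genes, which also respond to tissue digestion, were positive in 7 of 16 (median -0.09).

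Whether the genotype difference itself differed between lymphatic and other endothelial cells was tested with an interaction term and each tag as a block. edgeR called 0 of 14021 genes (0%), with 586 at an unadjusted p under 0.05; the alternative tool was not run on this term. The median interaction over all genes was -0.32 on the log2 scale, so list medians are read beside it: -0.61 for type I interferon genes, -1.07 for interferon gamma and MHC class I genes, -2.48 for MHC class II genes and 0.18 for lymphatic identity genes. That median was not stable: without cells holding Ptprc, Epcam or Col1a1 reads it was 0.25 over 11992 genes. The term also covers genes with too few reads for the test in lymphatic cells alone. Its lists hold 8 MHC class II genes against 5 tested there, and 20 type I interferon genes against 16. Without CCR2KO tag 7, edgeR called 1 gene, Plac8. In the other endothelial cells alone edgeR called 179 of 14961 genes (1.20%), 58 higher (0.388%) and 121 lower (0.809%). The counts of the 2 cell kinds are not comparable, because other endothelial cells were 7719 and lymphatic cells 276.

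Low numbers of reads of other cell types were widespread among the lymphatic cells, and the highest tags rested on few cells. At full depth Scgb1a1 had a read in 253 of the 276 cells, Lyz2, a lysozyme of macrophages, in 198, and the collagen gene Col3a1 in 153. The 4 epithelial markers summed to 158580 CPM in CCR2KO tag 8 with a CCR2KO median of 475, against 138 to 11767 in WT tags with a median of 236. The 5 fibroblast markers summed to 16993 in CCR2KO tag 7, where 1 cell held 52.4% of all Col3a1 reads, with a CCR2KO median of 232, against 37.6 to 4087 in WT tags with a median of 212. The 5 megakaryocyte markers summed to at most 121 CPM (WT tag 4) and the 6 mesothelial markers to at most 174 CPM (WT tag 8). Of these Ppbp, Gp9, Itga2b and Upk3b had no read in any lymphatic cell, while the megakaryocyte gene Pf4 had one in 15 cells and the mesothelial gene Msln in 4. Sftpc, a surfactant gene of alveolar epithelium, was detected at 5000 reads in 43.8% of lymphatic, 46.0% of other endothelial and 44.5% of B cells, a like share in each. The summed level of the 4 epithelial markers was not alike. In other endothelial cells it ran from 4408 to 25060 CPM in WT tags (median 8210), and from 2540 to 58145 in CCR2KO tags (median 17997). Scrublet called 1 of the 276 lymphatic cells a doublet, and 314 of the 7719 other endothelial cells.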

How the data were processed

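The deposited tables hold whole-number counts per gene and cell with no normalization; the authors' column names give each cell's tag. The build was GRCm38, and the tools listed in the submitters' processing notes are R 3.6.3, Bowtie2 2.4.2 and cutadapt 2.10. How reads were counted is not given in the sources used here. A total of 1213 columns named as doublet or without a tag were not used. Cells needed 200 detected genes and at most 25% mitochondrial reads. A gene absent from 1 table was given 0 there. The lymphatic cells, gene lists and tests were chosen with earlier results of these data known. Genes named are members of the gene lists at 20 CPM or more in either genotype (the examples with a test are the 2 of smallest p or highest level in a list), the called genes, and the 15 of largest ratio to other endothelial cells. Vegfc, Vegfd, Plac8, Msln, Ppbp, Gp9, Itga2b and Upk3b were not chosen by this rule and were named after their values were seen.

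Reads were summed per tag and cell kind (at least 5 cells). edgeR 4.0.16 (R 4.3.3; filterByExpr, TMM, quasi-likelihood test, Benjamini-Hochberg adjustment at 0.05) compared genotypes; DESeq2 1.42.0 was an alternative. Shares and the Ccl21 sum were compared by exact permutation over tags. Thinning drew 5000 reads per cell without replacement (15 other endothelial cells and 3 B cells were shallower). Doublets were called by Scrublet in scanpy 1.11.5. The edgeR script was tested on simulated data. Other alternatives were RLE size factors, no filter on low counts, at least 10 cells per tag, 3 lymphatic markers, a stricter cell filter (500 genes, 10% mitochondrial reads), cells capped at or thinned to 5000 reads, cells with other types' reads left out, each tag left out, and tag number as a block. Leaving out Scrublet doublets or cells with Ptprc reads, the fit of the block's tags without the block, the chemokine list without Ccl21 copies and the alternatives for the Ccl21 sum were chosen after seeing the data. Python 3.11.15 with numpy 2.4.6, scipy 1.17.1, pandas 2.3.3 and matplotlib 3.10.9 was used.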

Additional observations from a re-analysis of the deposited data

Results flagged for a closer look

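Within each genotype the shares, the Ccl21 sum and 9 genes shown in the report were searched for 1 tag far from the others (Dixon's ratio, 24 groups of tags; chance flags about 1 in 20 groups), and 3 tags stood out. Nts stood at 2214 CPM in the lymphatic cells of CCR2KO tag 1, with the next CCR2KO tag at 1060. Scgb1a1 stood at 157964 CPM in CCR2KO tag 8, with the next at 395. Ccl2 stood at 442 CPM in WT tag 1, with the next WT tag at 112. The genes searched were chosen after their values were seen.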

How the results depend on the processing

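The number of genes that differed between genotypes in lymphatic cells was 3 and depended on the processing. It was 9 with no filter on low counts, 1 with cells capped at 5000 reads and 10 with DESeq2. edgeR gave 0 with at least 10 cells per tag (209 genes at an unadjusted p under 0.05), 0 with 3 lymphatic markers (128) and 0 without cells holding Ptprc, Epcam or Col1a1 reads (78). Leaving out each tag in turn gave 0 to 5 genes, and 0 to 1 for the interaction. Same-numbered tags were little correlated in expression: correlations of their deviations ran from -0.0385 to 0.0684 over 3539 genes. Only numbers 4 and 6 matched their own number best. In the shares some numbers went together. Tag 4 had the highest share of kept cells in both genotypes (1.55% in WT, 1.14% in CCR2KO), but the lowest was tag 8 in WT and tag 1 in CCR2KO. Tag 3 had the lowest share of lymphatic cells with cell cycle reads in both (0 and 5.88%), but the highest was tag 7 in WT and tag 4 in CCR2KO. With tag number as a replicate block edgeR gave 0 genes (178 unadjusted), and the same tags without the block also gave 0 (144 unadjusted). The difference in share of kept cells was -0.104 percentage points, reversed to 0.00861 under the stricter cell filter, and ran from -0.174 to -0.0216 with single tags left out. The difference in share of endothelial cells was 0.511 points, reversed to -0.0708 with 3 markers, and ran from 0.217 to 0.866. Among 24 genes followed across settings and the Ccl21 sum, 620 of 682 comparisons with another setting kept direction and side of the threshold. Of the rest 35 lost the call, 4 gained one and 23 reversed. All 35 losses fell on the 3 called genes, as the other genes had no call to lose. With single tags left out, Scgb1a1 kept its call in 7 of 17 fits, and Chil3 and Rn45s in 14 each. Under the other settings Scgb1a1 lost it in 5 of 10, Chil3 in 6 of 10 and Rn45s in 8 of 11. The 10 settings of Scgb1a1 leave out DESeq2, which did not call that gene. The reversals were Ccl21a (0.0495 with RLE and with DESeq2, 0.0481 with capped cells; -0.12 to 0.0688 with single tags left out), Ccl2 (-1.04 with 3 markers), Kdr (0.19 without mixed cells), Fos (0.0404 with RLE, 0.0405 with DESeq2, 0.12 with 3 markers, 0.0555 capped, 0.0242 with the block; -0.19 to 0.12 with single tags left out) and Fth1 (0.12 with 3 markers, without Ptprc cells and with capped cells). With capped cells 1266 genes were tested. The cause was not tested. Tags of 6 to 30 cells limit what this comparison can detect.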
